A study of Mus musculus with 6 samples.

Results

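The TNF superfamily ligands are trimeric proteins, most of them anchored in the cell membrane, with which one cell signals to receptors on another. In CD8+ T cells they serve killing through death receptors, co-stimulation of neighbouring lymphocytes and antigen-presenting cells, and the building of lymphoid tissue. Here 10 of these ligand genes were followed among 22180 genes tested: Fasl, Tnf, Lta, Ltb, Tnfsf4, Tnfsf8, Tnfsf10, Tnfsf11, Tnfsf14 and Cd40lg. The 10 genes were chosen by name with earlier results of this same comparison known, and the probe set of each gene was selected on the highest mean over all 6 arrays. Each of the 10 had exactly 1 probe set that names it alone, so no choice between probe sets arose. The p-values below come from the fit over all genes and describe it, and they are no independent support for a group that was picked with results in view.

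The 6 whole-transcript Affymetrix arrays carried RNA of CD8+ T cells from C57BL/6 mice, 3 of the genotype wild type and 3 of the genotype Dot1l knockout. Dot1l encodes the methyltransferase of lysine 79 of histone H3. Knockout mice carried floxed Dot1l alleles and the CD4-Cre transgene, which acts during thymic development in T cells of both the CD4 and CD8 lineages. Cells came from peripheral lymph nodes and spleen of untreated mice by a magnetic kit. The labels do not tell the age of the mice, whether wild type mice carried floxed alleles or Cre, or whether each array held its own animal, so p-values may measure technical spread. Values are log2 expression, on which 1 unit is a doubling, and n = 3 arrays per group throughout.

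The probe set of Dot1l read 7.30 ± 0.04 (SD) on knockout-labelled and 7.20 ± 0.25 on wild type arrays. The floxed exon is not given, and probes outside it check nothing, so directions refer to the labels. Over all genes 1220 passed at an adjusted p under 0.05 (limma, Benjamini-Hochberg). The median of the 16010 unnamed probe sets read 3.55 to 3.63 on knockout-labelled and 3.34 to 3.49 on wild type arrays. With that median as a covariate 216 genes passed. The ranges of the groups do not overlap, so this fit cannot fully separate the covariate from genotype. The T cell genes Cd3e, Cd3g, Cd8a and Cd8b1 averaged 10.95 to 11.83 in both groups, and Cd4 read 3.79 in wild type and 3.86 in knockout-labelled arrays. Of 8 measured CD8 T cell genes Cd5 alone passed (-1.01, adjusted p = 0.000376 by limma), and the list median was -0.06. Every knockout-labelled array read below every wild type array for Cd3e and Cd5. For Thy1 (0.31) and Cd2 (0.24), which did not pass, every knockout-labelled array read above. A guide to background of 3.84 was taken as the 95th percentile of 1390 olfactory and vomeronasal receptor genes.

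Of the 10 ligand genes 5 were higher in knockout-labelled cells and 1 was lower. Fasl rose 6.23-fold, Tnfsf11 3.41-fold, Tnfsf4 2.56-fold, Tnfsf10 2.19-fold and Tnfsf14 1.72-fold, while Cd40lg fell by 0.88 on the log2 scale. The sizes for Tnfsf4 and Cd40lg are uncertain, because Tnfsf4 read below the background guide on every wild type array and Cd40lg on every knockout-labelled array. Thus 5 of 10 passed as higher, against 4.30% of all genes, and 1 of 10 as lower, against 1.20% of all genes. For 6 of the 10 every knockout-labelled array read above every wild type array, as did 13.7% of all genes, and for 1 every knockout-labelled array read below, as did 9.78%. The same shares of all genes apply to the counts of the other gene lists. They include dim genes, and brighter genes passed more often. In a fit of the 11090 genes above the 50th percentile of level 1171 passed as higher and 366 as lower. At an unadjusted p under 0.05 the share of all genes was not counted, so list counts at that cut have no such measure. Tnf, Lta, Ltb and Tnfsf8 did not pass. The median difference was 0.63 over the 10 genes and -0.01 over all genes tested. In bulk RNA, a change in the number of cells that carry a transcript and a change in the transcript per cell cannot be told apart.

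**Figure D1:**
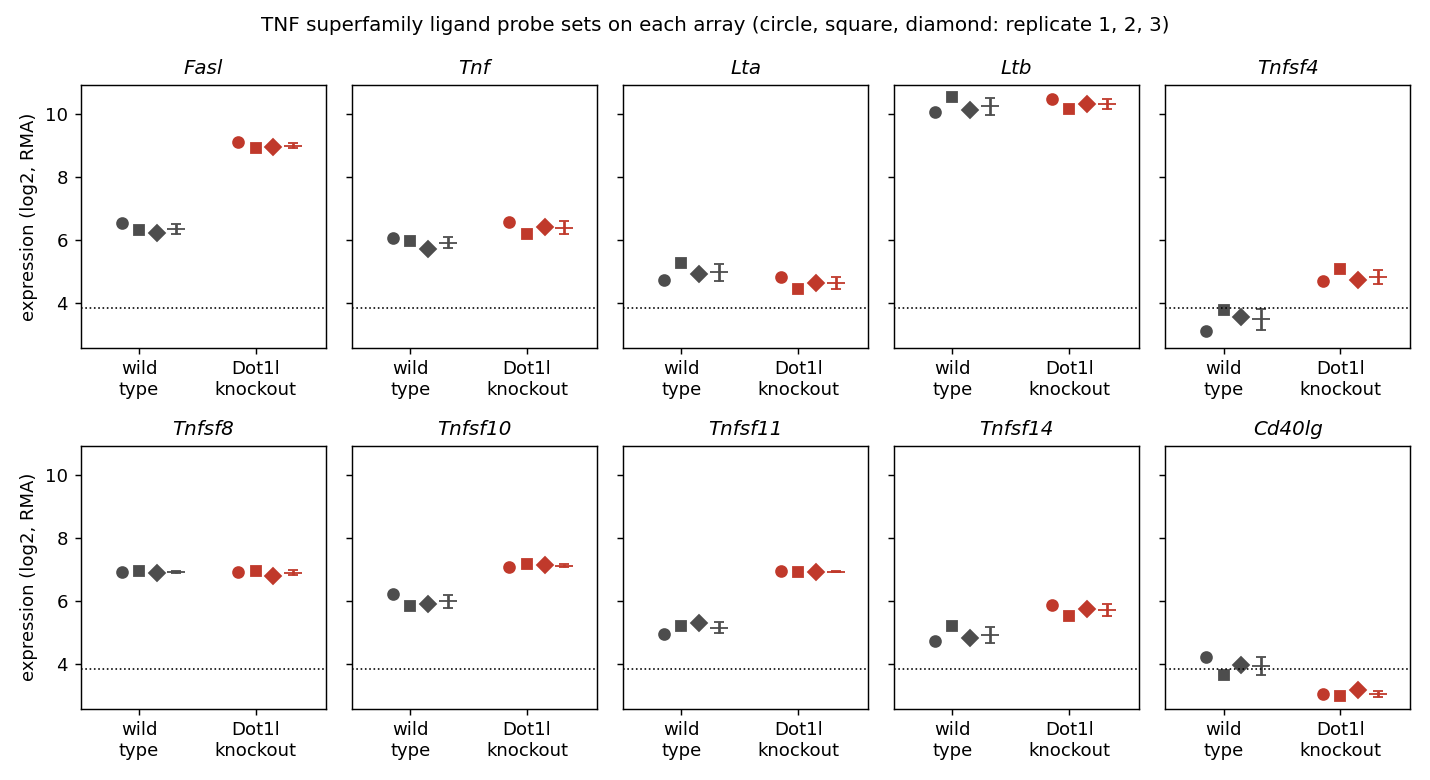
Log2 expression (RMA) of each ligand's probe set on each array, with circle, square and diamond for replicates 1, 2 and 3, the mean ± SD beside them, and a dotted line at the background guide of 3.84. Fasl, Tnf, Tnfsf4, Tnfsf10, Tnfsf11 and Tnfsf14 are separated upward in the knockout-labelled arrays and Cd40lg downward, while the groups overlap for Lta, Ltb and Tnfsf8.

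Start regions were printed for the rising ligand genes that had one, as these are the genes that passed in the same direction. RefSeq start regions (build GRCm38.p6) of 300 bases, from 250 before to 50 after the transcript start, were found for 8 of the 10 genes and not for Tnfsf4 and Cd40lg. Each is given 5′ to 3′ on the strand of its gene, and capitals mark matches to any of the searched motifs. Fasl lies at chr1:161788446-161788745 (minus strand), Tnfsf10 at chr3:27316827-27317126 (plus strand), Tnfsf11 at chr14:78307994-78308293 (minus strand) and Tnfsf14 at chr17:57194132-57194431 (minus strand).
Fasl: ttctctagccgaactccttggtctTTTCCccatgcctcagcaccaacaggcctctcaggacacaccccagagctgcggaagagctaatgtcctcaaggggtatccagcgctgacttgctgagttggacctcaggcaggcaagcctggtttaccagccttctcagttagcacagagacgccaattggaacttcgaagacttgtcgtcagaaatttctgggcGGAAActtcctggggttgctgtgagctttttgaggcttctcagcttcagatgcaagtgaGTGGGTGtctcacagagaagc
Tnfsf10: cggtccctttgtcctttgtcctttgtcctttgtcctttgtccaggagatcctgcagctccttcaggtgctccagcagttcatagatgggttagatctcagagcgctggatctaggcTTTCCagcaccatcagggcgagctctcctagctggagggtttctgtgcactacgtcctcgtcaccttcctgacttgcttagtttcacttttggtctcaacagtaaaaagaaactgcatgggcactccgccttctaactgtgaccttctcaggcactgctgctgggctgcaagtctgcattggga
Tnfsf11: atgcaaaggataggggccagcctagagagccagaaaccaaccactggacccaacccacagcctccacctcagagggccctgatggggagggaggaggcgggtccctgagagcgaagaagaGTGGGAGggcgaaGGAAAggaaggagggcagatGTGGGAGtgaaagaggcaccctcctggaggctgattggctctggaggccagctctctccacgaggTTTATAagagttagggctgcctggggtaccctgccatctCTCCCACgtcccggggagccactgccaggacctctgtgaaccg
Tnfsf14: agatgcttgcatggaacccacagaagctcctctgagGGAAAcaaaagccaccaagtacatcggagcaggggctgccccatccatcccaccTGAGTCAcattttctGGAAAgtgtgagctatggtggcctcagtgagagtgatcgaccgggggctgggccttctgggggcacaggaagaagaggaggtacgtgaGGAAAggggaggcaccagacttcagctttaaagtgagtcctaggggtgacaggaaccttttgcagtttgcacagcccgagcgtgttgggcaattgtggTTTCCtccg

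The motifs searched, on both strands, were the NFAT core GGAAA, the EGR motif GTGGGNG, the AP-1 motif TGANTCA, a kappaB motif (GGG and TTCC with any 3 bases between them), the STAT motif TTCNNNGAA, an interferon response motif (GAAA and GAAA with any 2 bases between them) and the TATA box TATAAA. The NFAT core was present in 8 of the 8 start regions, and in 61.3% of all 32851 RefSeq start regions of this length. In the Fasl region it lay at -226 to -222 and at -30 to -26 from the start, and an EGR match lay at 30 to 36. The Tnfsf11 region held EGR matches at -130 to -124, at -97 to -91 and at 8 to 14, and a TATA box match, read on the opposite strand, at -32 to -27. EGR matches were also present in Ltb and Tnfsf8, which did not pass, so that 4 of 8 regions had one, against 31.6% of all regions. The only AP-1 match among the 8 was in Tnfsf14, at -160 to -154, against 7.81% of all regions. The only kappaB match was in Ltb, at -87 to -78, where it overlaps an NFAT core, against 5.56% of all regions. STAT matches were found in Lta and Ltb (8.30% of all regions), TATA box matches in Tnf, Lta and Tnfsf11 (13.6%), and no interferon response match in any of the 8 (3.44%). In the Tnfsf10 region the NFAT core at -134 to -130 was the only match. A match in letters is not a binding site, and its absence says only that the letters are not in this window.

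Fasl, Tnfsf10 and Tnf can kill through receptors with a death domain, and of these Fasl and Tnfsf10 rose and Tnf did not pass. Fasl binds Fas and is the ligand with which cytotoxic T cells trigger caspases in their targets. It read 6.53, 6.33 and 6.23 on wild type arrays 1, 2 and 3, and 9.10, 8.94 and 8.97 on knockout-labelled arrays. The lowest knockout-labelled value stood 2.40 above the highest wild type value. The log2 difference was 2.64 (SE 0.11, 95% interval 2.38 to 2.89, adjusted p = 1.1e-05 by limma), and it lay between 2.57 and 2.72 when any 1 array was left out. Its interval lay above those of the other 9 ligands.

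Tnfsf10, or TRAIL, which binds Tnfrsf10b in the mouse, read 6.23, 5.85 and 5.88 on wild type arrays and 7.07, 7.16 and 7.12 on knockout-labelled arrays. The groups were 0.84 apart at their closest, and the wild type arrays spread more (SD 0.21) than the knockout-labelled arrays (SD 0.05). The difference was 1.13 (SE 0.12, 95% interval 0.85 to 1.41, adjusted p = 0.000831). It was 0.83, with an adjusted p of 0.112, with the unnamed probe sets' median as a covariate. Tnf, the secreted and membrane-bound cytokine that gave the family its name, read 6.06, 5.96 and 5.71 on wild type and 6.58, 6.19 and 6.41 on knockout-labelled arrays. The 2 groups of Tnf values did not overlap, but by only 0.13. Its difference of 0.48 (SE 0.14, 95% interval 0.18 to 0.79, adjusted p = 0.0817) did not pass over all genes, and it passed at 0.0469 when genes below the median level were left out. Beside these ligands, 2 of 8 measured NK and innate lymphoid markers passed as higher, against 4.30% of all genes. They were Klri2 (0.78) and Tyrobp (0.43). At an unadjusted p under 0.05, 6 of 8 were higher and 0 lower. For 6 of the 8 every knockout-labelled array read above every wild type array, as did 13.7% of all genes. All 8 differences were above 0 (Klrb1c 0.90 and Ncr1 0.44 among those that did not pass), and the median was 0.43. Gzmc averaged below the background guide in both groups, and Klrb1c (3.25) and Fcgr3 (3.66) did so in wild type arrays. The sizes of these differences are therefore uncertain. The mean level of the 8 was 4.30 to 4.39 on knockout-labelled and 3.76 to 4.02 on wild type arrays. Tyrobp did not pass in any of the 6 fits that left out 1 array. Klrb1c passed as higher without wild type replicate 2 (1.34, adjusted p = 0.0004 by limma) and with array weights (0.0289). With all arrays its groups overlapped, as wild type replicate 2 read 4.14 and the knockout-labelled arrays 4.13, 4.22 and 4.09. Ncr1 (0.0378) and Rora (0.0423) passed as higher among genes above the 50th percentile of level. The part of such cells in the rise of Fasl and Tnfsf10 was not tested.

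The ligands of lymphoid tissue and bone differed from one another. Tnfsf11, known as RANKL, drives the formation of osteoclasts and of lymph nodes and activates dendritic cells. It read 4.96, 5.21 and 5.28 on wild type arrays and 6.94, 6.91 and 6.90 on knockout-labelled arrays, which spread by 0.02 (SD) against 0.17 in wild type arrays. The groups stood 1.62 apart, and the difference was 1.77 (SE 0.11, 95% interval 1.52 to 2.02, adjusted p = 4.24e-05). Lta and Ltb encode the subunits of membrane lymphotoxin, which signals through Ltbr to stromal cells. Lta read 4.75, 5.28 and 4.93 on wild type and 4.81, 4.45 and 4.65 on knockout-labelled arrays, so the groups overlapped (-0.35, SE 0.15, 95% interval -0.69 to 0.00, adjusted p = 0.282). Ltb read 10.06, 10.55 and 10.12 on wild type and 10.48, 10.16 and 10.32 on knockout-labelled arrays. Those values interleave, and the difference was 0.08 (95% interval -0.26 to 0.41, adjusted p = 0.848). For both lymphotoxin genes wild type array 2 read highest among its group.

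The co-stimulatory ligands went both ways. Tnfsf4, or OX40L, stimulates T cells through Tnfrsf4 and is best known from antigen-presenting cells. It read 3.12, 3.77 and 3.55 on wild type arrays and 4.71, 5.09 and 4.72 on knockout-labelled arrays. All 3 wild type values lay below the background guide and all 3 knockout-labelled values above it, so the size of the rise is uncertain. The difference was 1.36 (SE 0.18, 95% interval 0.96 to 1.76, adjusted p = 0.00218), and 1.68 with an adjusted p of 0.0667 when the unnamed probe sets' median entered the fit. In the same arrays 3 of 11 measured B cell markers were higher (Ms4a1 by 1.13, Cd79a by 0.86 and Cd22 by 1.29), 4 higher and 0 lower at an unadjusted p under 0.05. The median difference was 0.24, with a list mean of 4.50 to 4.60 on knockout-labelled and 4.11 to 4.24 on wild type arrays. Of those that did not pass, Fcer2a (0.42), Ebf1 (0.26), Bank1 (0.24), Cd79b (0.24) and Spib (0.18) were above 0. Pax5 (-0.19), Blk (-0.09) and Vpreb3 (-0.02) were below 0. Of 11 dendritic cell markers 3 were higher (Itgax by 1.14, Bst2 by 0.75 and H2-Aa by 1.21), 4 higher and 1 lower at an unadjusted p under 0.05. Among those that did not pass were H2-Ab1 (1.09, adjusted p = 0.0875 by limma), Cd209a (-0.37), Ccr9 (-0.30) and Xcr1 (-0.22). The median was -0.02, with list means of 5.27 to 5.38 and 4.92 to 5.13. For H2-Ab1 every knockout-labelled array read above every wild type array. It passed as higher with the replicate block (0.0238) and without wild type replicate 3 (0.00439). Of 12 monocyte, macrophage and neutrophil markers 2 were higher (Itgam by 0.60 and Mpeg1 by 1.32), 2 higher and 2 lower at an unadjusted p under 0.05. Adgre1 (-0.60) and Csf1r (-0.40) did not pass, and the median was -0.06, with list means of 3.76 to 3.90 and 3.61 to 3.87. Of the 6 fits that left out 1 array, Cd79a passed in 1, Itgam in 2, Bst2 in 3 and H2-Aa in 4. The B cell genes Pax5, Ebf1, Vpreb3 and Spib, the dendritic cell genes Flt3, Zbtb46, Siglech, Xcr1 and Batf3, and the myeloid genes Cd14, Adgre1, S100a8, S100a9, Ly6g and Mertk averaged below the background guide in both groups. The other members of these lists averaged above it in at least 1 group. In wild type arrays Ms4a1 (3.24), Fcer2a (3.76) and Mpeg1 (3.67) averaged below it, so the sizes of their differences are uncertain. Cd79b averaged 6.52 in wild type and 6.76 in knockout-labelled arrays, Bank1 5.64 and 5.89, Cd209a 8.10 and 7.73, Cd68 5.02 and 5.13, and Lyz2 4.53 and 4.42. Bst2 averaged 10.06 and 10.81, the highest of the dendritic cell list, so that list's means rest in part on it. The part of these cell types in the rise of Tnfsf4 was not tested.

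Tnfsf14, or LIGHT, co-stimulates T cells through Tnfrsf14 and also binds Ltbr. It read 4.74, 5.21 and 4.83 on wild type arrays and 5.85, 5.51 and 5.75 on knockout-labelled arrays, 0.30 apart at the closest. The difference was 0.78 (SE 0.15, 95% interval 0.45 to 1.12, adjusted p = 0.0150). It did not pass without wild type replicate 3 (adjusted p = 0.0620) or without knockout replicate 1 or 3 (0.0667 and 0.0705), nor after a further quantile normalization (0.58, adjusted p = 0.0931). Tnfsf8, the ligand of Tnfrsf8 (CD30), read 6.93, 6.95 and 6.87 on wild type and 6.91, 6.96 and 6.80 on knockout-labelled arrays. Its groups overlapped and its difference of -0.03 had a 95% interval of -0.25 to 0.19 (adjusted p = 0.929).

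Cd40lg, the ligand with which helper T cells activate B cells and dendritic cells through Cd40, was the 1 ligand that fell. It read 4.20, 3.63 and 3.97 on wild type arrays and 3.03, 2.97 and 3.15 on knockout-labelled arrays, a difference of -0.88 (SE 0.15, 95% interval -1.22 to -0.55, adjusted p = 0.00801). The groups stood 0.48 apart, and the call held without each array in turn (adjusted p up to 0.0407). The knockout-labelled values and wild type array 2 lay below the background guide, so the size of the fall is uncertain. Among 9 measured genes of CD4 helper and regulatory T cells, Cd4 (0.06, adjusted p = 0.857), Zbtb7b (-0.06) and Foxp3 (-0.25, adjusted p = 0.540) did not pass. Ikzf2 (1.16), Il2ra (0.69) and Gata3 (0.84) were higher and Cxcr5 (-0.98) was lower in the same list (3 higher and 3 lower at an unadjusted p under 0.05, median -0.06). Il2ra passed in 3 of the 6 fits that left out 1 array. Ctla4 (-0.54, adjusted p = 0.0752) and Icos (-0.33, adjusted p = 0.178) did not pass, though every knockout-labelled array read below every wild type array for both. Ctla4 passed as lower under trend and robust fitting (0.0308), with array weights (0.0234) and without wild type replicate 2 (0.00948). It also passed as lower among genes above the 50th percentile of level (0.0448) and with median centring over all probe sets (0.0462). The list's mean was 6.22 to 6.32 on knockout-labelled and 6.18 to 6.22 on wild type arrays. The part of CD4 T cells in the fall of Cd40lg was not tested.

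**Figure D2:**
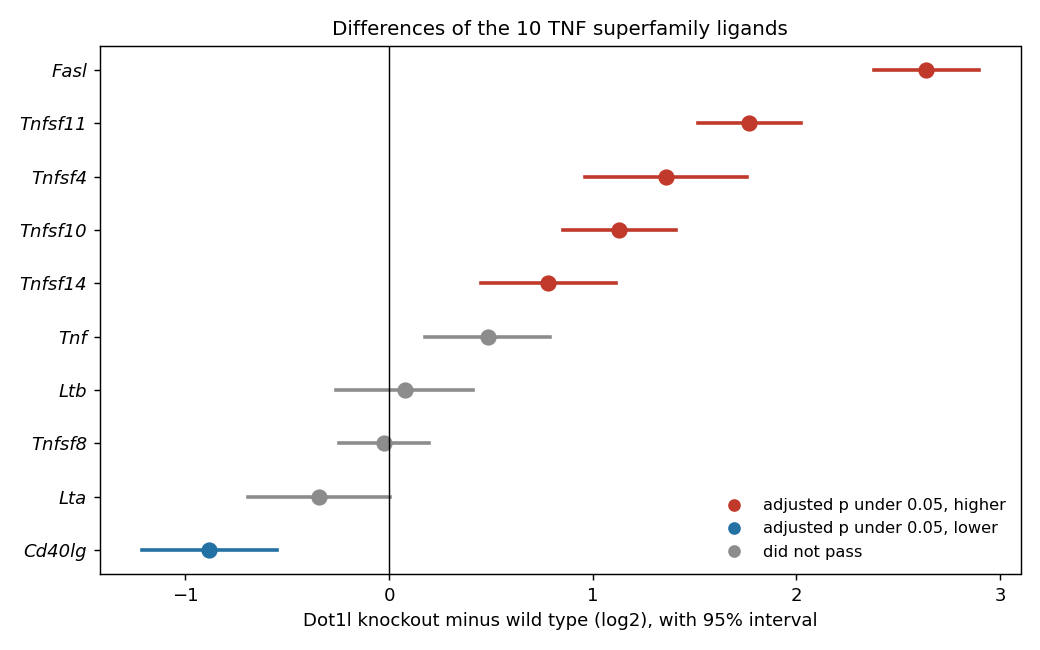
Knockout minus wild type difference of each ligand on the log2 scale (points) with its 95% interval from limma (lines), in order of size. The interval of Fasl (2.38 to 2.89) lies above all others, those of Tnfsf11 and Tnfsf4 and those of Tnfsf4 and Tnfsf10 overlap, and only Cd40lg passed as lower.

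Among the receptors of the 10 ligands 1 passed. Of 11 measured receptor genes 0 were higher and 1 was lower (limma, Benjamini-Hochberg), 1 and 2 at an unadjusted p under 0.05, with a median difference of -0.07. Fas, the receptor of Fasl, read 6.90 ± 0.16 in wild type and 6.82 ± 0.13 in knockout-labelled arrays (-0.08, 95% interval -0.36 to 0.19). The receptor that passed was Tnfrsf10b, the TRAIL receptor. It read 7.73, 7.28 and 7.63 on wild type and 6.94, 7.08 and 7.00 on knockout-labelled arrays (-0.54, SE 0.13, adjusted p = 0.0439), so Tnfsf10 rose while its receptor fell. That fall passed in 1 of the 6 fits that left out 1 array, with adjusted p up to 0.151. The Tnf receptor genes Tnfrsf1a (-0.27, 95% interval -0.53 to -0.01, adjusted p = 0.252) and Tnfrsf1b (0.16, -0.08 to 0.40) did not pass. Nor did the Tnfsf14 receptor gene Tnfrsf14 (-0.04, -0.27 to 0.19), the Tnfsf4 receptor gene Tnfrsf4 (-0.18, -0.59 to 0.23) and the lymphotoxin receptor gene Ltbr (-0.07, -0.33 to 0.20). The Tnfsf8 receptor gene Tnfrsf8 (0.35, 95% interval 0.05 to 0.65, adjusted p = 0.196 by limma) did not pass either. Every knockout-labelled array read above every wild type array for 2 of the 11 receptors, Tnfrsf8 among them, and below for 2. The RANKL receptor gene Tnfrsf11a and its decoy Tnfrsf11b read below the background guide in both groups.

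None of the family's other measured ligands passed. Of 6 measured genes, Tnfsf9, Tnfsf13b, Tnfsf15, Tnfsf18, Cd70 and Eda, 0 passed in either direction, also at an unadjusted p under 0.05, and the median difference was -0.06. Of these 6, 5 read below the background guide in both groups. Tnfsf9, which encodes the ligand of 4-1BB, read 4.02 ± 0.33 in wild type and 3.99 ± 0.21 in knockout-labelled arrays (-0.03, adjusted p = 0.949). Tnfsf12 and Tnfsf13 had no probe set of their own and were not measured.

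Downstream of the receptors, 0 of 9 measured death receptor signalling genes passed (2 higher and 0 lower at an unadjusted p under 0.05), with a median of 0.07. They include Casp8, the first caspase of the pathway (0.07, adjusted p = 0.816), its inhibitor Cflar (-0.00) and the adaptor Fadd (0.40, adjusted p = 0.161). Of 12 measured TRAF adaptor and NF-kB genes 0 were higher and 1 was lower (1 and 4 at an unadjusted p under 0.05), with a median of -0.02. The lower one was Traf5, an adaptor of OX40 and other co-stimulatory receptors, which read 6.88, 6.44 and 6.65 on wild type and 5.91, 5.55 and 5.75 on knockout-labelled arrays (-0.92, SE 0.14, adjusted p = 0.00543). It passed in all 6 fits that left out 1 array, but not with the unnamed probe sets' median as a covariate (-1.09, adjusted p = 0.115). Of 8 genes for shedding and release of ligands, such as the protease genes Adam10 (-0.15) and Adam17 (-0.04), 0 passed (1 higher and 1 lower at an unadjusted p under 0.05), with a median of -0.07.

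Transcription factors known to act on ligand genes were higher in part. Of 15 measured factors 4 were higher, against 4.30% of all genes, and 0 lower. All 15 averaged above the background guide in both groups, whereas the share of all genes includes dim genes. At an unadjusted p under 0.05 the counts were 8 and 0, and the median was 0.26. For 10 of 15 every knockout-labelled array read above every wild type array, as did 13.7% of all genes. Eomes, which encodes a T-box protein of memory and killer cells, read 8.29 ± 0.04 in wild type and 9.56 ± 0.05 in knockout-labelled arrays (1.27, SE 0.10, adjusted p = 9.86e-05). Its relative Tbx21 rose by 0.93 (SE 0.12), the immediate early factor Egr1 by 1.12 (SE 0.14) and Fos by 0.63 (SE 0.10). With the covariate Egr1 (adjusted p = 0.137) and Fos (0.186) did not pass. Egr2 (0.06) and Egr3 (0.02), which belong to the same family as Egr1, did not pass, nor did Nfatc1 (0.35, adjusted p = 0.0733), Nfatc2 (0.39, adjusted p = 0.0504) and Nfatc3 (0.11). Nfatc2 passed with trend and robust fitting (0.0186), with array weights (0.0373) with probe sets averaged per gene (0.0496) and under both filters on level (0.0406 and 0.0219). Nfatc1 passed with trend and robust fitting (0.0151) and among genes above the 50th percentile of level (0.0320). Among 8 genes listed for the decay or stability of mRNA 2 were higher and 0 lower (2 and 0 at an unadjusted p under 0.05), with a median of 0.15. These were Zfp36, which destabilises Tnf mRNA (0.51, SE 0.10, adjusted p = 0.0177), and Hnrnpll, an RNA-binding protein of activated lymphocytes (0.56, SE 0.10, adjusted p = 0.0138). Whether Hnrnpll acts on ligand mRNA was not tested. Zfp36 passed in 2 and Hnrnpll in 4 of the 6 fits that left out 1 array.

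**Figure D3:**
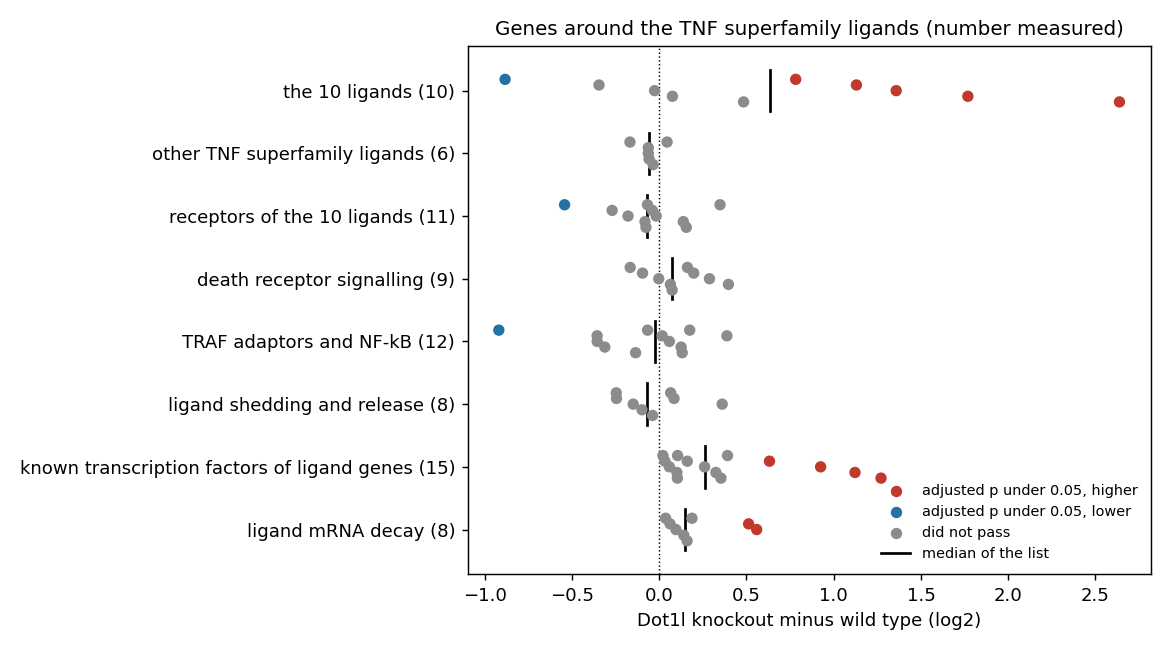
Knockout minus wild type difference (log2) of each measured gene in the ligand group and in 7 lists around it, 1 point a gene, coloured by call, with a bar at each list's median and the number measured in brackets. The ligands reach from -0.88 to 2.64, while the receptors stay between -0.54 and 0.35.

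Of the 10 ligand genes 5 had another of the 10 among the 2 nearest measured genes on either side, namely Tnfsf4 and Fasl on chromosome 1 and Ltb, Tnf and Lta on chromosome 17. Tnfsf10, Tnfsf11 and Cd40lg had no ligand of the family there. Differences between neighbouring genes were not tested. On chromosome 1 the gene order, counting genes measured here, runs Tnfsf4, Tnfsf18, Fasl. The outer genes rose by 1.36 and 2.64, and Tnfsf18 between them read 2.27 in wild type and 2.21 in knockout-labelled arrays, below the background guide. On chromosome 17 Ltb, Tnf and Lta are adjacent and differed by 0.08, 0.48 and -0.35, with 0 of 3 past the threshold. Elsewhere on chromosome 17 Tnfsf14 (0.78) follows Tnfsf9 (-0.03) and Cd70 (0.05). Over the 2 nearest measured genes on each side of every ligand, 29 distinct genes were not themselves among the 10. Of these, 0 passed (4 higher and 1 lower at an unadjusted p under 0.05, limma), and their differences ran from -0.32 to 0.52. The largest was Fndc3b beside Tnfsf10 (0.52, adjusted p = 0.0678), and Suco beside Fasl differed by 0.39 (adjusted p = 0.0980).

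**Figure D4:**
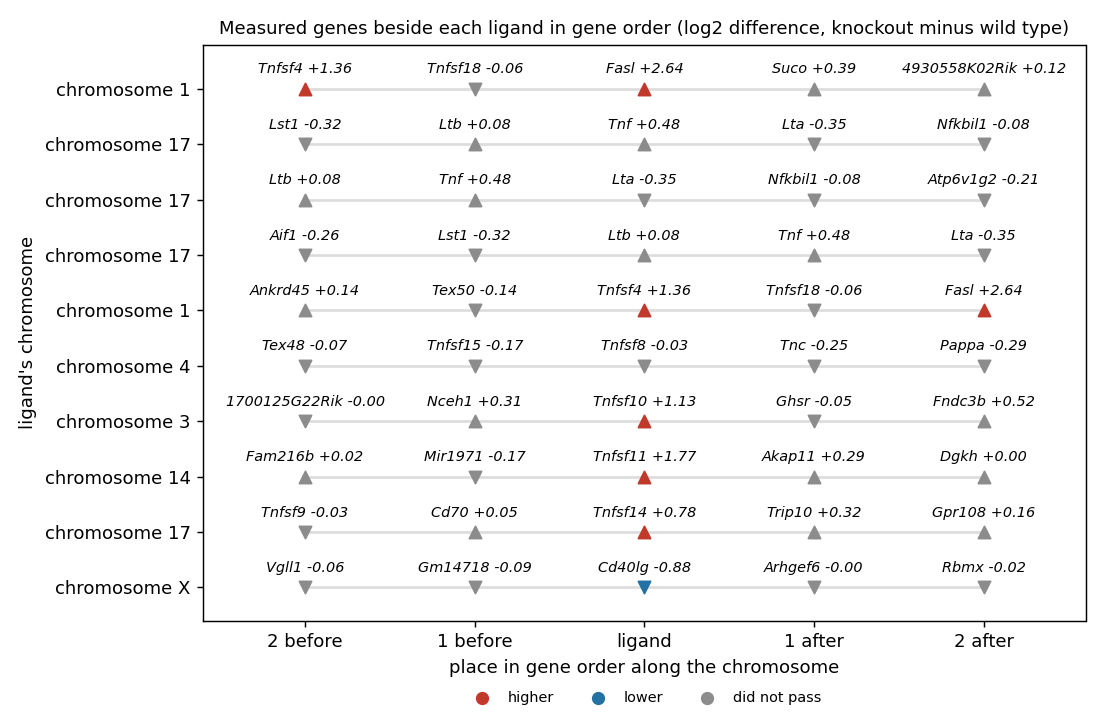
Each row is a ligand with the 2 nearest measured genes before and after it in RefSeq gene order, with the log2 difference printed above each symbol, upward triangles for values above 0 and colour for the call. The only neighbours that passed are Fasl and Tnfsf4, which neighbour each other across Tnfsf18.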

How the data were processed

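Per the submitters' processing notes, the authors made the deposited log2 values with RMA (background correction, quantile normalization, median polish) under R 3.1.1. RMA settings and a build are not stated there. RMA compresses differences of dim probe sets. Values ran from 1.03 to 12.9, arrays have no count depth, and 3 arrays per group limit the precision. Of 41345 probe sets 23521 named exactly 1 gene symbol in the platform annotation, 1814 several and 16010 none. For genes with more than 1 probe set the one with the highest mean was used, which left 22180 genes. Each was tested across all genes with limma 3.58.1 in R 4.3.3 (lmFit, eBayes, no covariate), with Benjamini-Hochberg adjustment, at an adjusted p under 0.05. A fold is the log2 difference taken off the log scale.

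The members and the 17 gene lists (169 genes, 149 measured) were chosen with earlier results of these data known. Every ligand is named; of the other ligands and the receptors every gene that passed, of other pathway lists those that passed, up to 4. Further genes were named after their values were seen. Results of marker lists not given above are these. Of 5 gamma delta genes Cd163l1 alone passed (-0.79), and it passed in 2 of the 6 fits that left out 1 array. Of 6 plasma cell, 4 erythroid and platelet and 7 stroma and endothelium genes 0 passed (3, 0 and 1 at an unadjusted p under 0.05, limma). Start regions were read from RefSeq (GRCm38.p6), and gene order from the RefSeq gene table of the same assembly.

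The labels do not say whether replicate numbers pair the arrays, and the main fit used no pairing. Correlations between same-numbered deviations were -0.07, -0.16 and -0.07. The alternatives were a replicate block, leaving out each array, rescaling, level filters, other variance models, other probe set rules, a covariate and other thresholds.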

Additional observations from a re-analysis of the deposited data

How the results depend on the processing

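Of the 5 ligands called higher, 5 were also called with the replicate number as a block (replicate block), and 1 stayed lower. The labels do not say whether same-numbered arrays were paired. With the block the count over all genes went from 1220 to 912. Under the block Tnfrsf10b (adjusted p = 0.0880, limma), Zfp36 (0.0572) and Tyrobp (0.0980) did not pass. Leaving out 1 array gave 4 or 5 higher and 1 lower. A further quantile normalization over all probe sets gave 4 higher and 1 lower, and it moved the share of higher among all calls from 78.2% to 57.1%. With the median of unnamed probe sets as a covariate 3 ligands passed as higher (Fasl, Tnfsf11 and Tnfsf14) and 1 as lower, and Tnfsf14 moved from 0.78 to 1.35 and Cd40lg from -0.88 to -1.34. Of the other genes named as passed, Eomes, Tbx21 and Cd22 kept their call there and the rest lost it (adjusted p 0.0506 to 0.513). That median read higher on every knockout-labelled array than on any wild type array, so the covariate partly stands for genotype. The SE rose with it, from 0.11 to 0.22 for Fasl and from 0.18 to 0.33 for Tnfsf4. Tnfsf4 lost its call though its difference went from 1.36 to 1.68. This fit cannot tell a technical effect from genotype, and the cause was not tested. Among the 11090 genes above the 50th percentile of level 6 of 9 ligands passed as higher, beside 1171 of all genes in that fit. There 0 ligands passed as lower, because Cd40lg was not among the genes tested. With a difference of at least 1 required, 4 passed as higher and 0 as lower, because Cd40lg differed by less. Directions turned for 3 ligands that did not pass in either fit. Ltb read -0.0140 without wild type replicate 1 and -0.00344 without knockout replicate 1 (range over arrays left out -0.0140 to 0.228). Tnfsf8 read 0.0171 without knockout replicate 3 (range -0.0610 to 0.0171), and Lta 0.27 with the covariate. Fasl and Tnfsf11 passed under all alternatives at that threshold, with differences of 2.56 to 2.72 and 1.62 to 1.93. Dim signal limits Tnfsf4 and Cd40lg.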
